A study of Drosophila melanogaster with 4 samples.

Results

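The peaks described here lie in the pericentromeric ends of chromosome arms 2L, 3L, 3R and X of Drosophila melanogaster. They were chosen by position alone on build dm6: a start at or beyond 22 Mb on 2L, 23 Mb on 3L or 22 Mb on X, or an end before 4.2 Mb on 3R, where the centromere lies at the low end of the coordinates. This gave 4384 of the 75208 peaks in 4 deposited peak lists, or 5.83%. The Cut knockdown H3K27me3 list held 1070 of them among its 18886 peaks (5.67%), against 547 of 4317 (12.7%) in the control H3K27me3 list. The Cut knockdown H3K27ac list held 1174 of 25770 (4.56%), against 1593 of 26235 (6.07%) in the control H3K27ac list. The regions were taken to reach the farthest peak or annotated gene on each arm and spanned 12.3 Mb, with 1.51 Mb on 2L, 5.09 Mb on 3L, 4.2 Mb on 3R and 1.54 Mb on X. They contained 145 of the 13911 protein-coding genes annotated on 6 arms.

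Pericentromeric DNA of the fly is rich in transposon remnants and other repeats and is packaged largely as constitutive heterochromatin, whose typical histone mark is methylation of H3 at lysine 9 bound by the protein HP1a. H3K27me3, deposited by Polycomb repressive complex 2, is the usual mark of facultative repression in the euchromatic arms, and H3K27ac marks active promoters and enhancers. The protein-coding genes of these regions include very long ones with introns full of repeats, and many of them are known to depend on their heterochromatic surroundings for normal expression.

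The study profiled both marks by chromatin immunoprecipitation and sequencing after RNA interference against Cut, a homeodomain transcription factor, and asked how Cut and cohesin shape chromatin in neuroblasts, the neural stem cells of the fly. The groups were Cut_KD H3K27me3, Control H3K27me3, Cut_KD H3K27ac and Control H3K27ac, with 1 library each. All embryos, knockdown and control, carried wor-gal4 and UAS-dsRed, were collected over 16 h at 25 °C, and gave nuclei sorted for dsRed. The RNA interference construct and the control's genotype beyond these transgenes were not given in the labels, which state that wor-gal4 is active across the nervous system from stage 11 and that sorted nuclei, 0.5 to 3% of all, were at least 50% pure. As a check of the label, H3K27ac lay on or within 500 bp of 8 of 8 listed neuroblast genes in the knockdown and 7 of 8 in the control, where ase had none. It also lay on 4 of 4 neuron, 3 of 3 glia and 3 of 3 muscle genes in either genotype, and on 2 of 3 epidermis genes in the knockdown and 3 of 3 in the control, so the lists do not separate neuroblasts from other cells. Of all protein-coding genes, 76.8% carried H3K27ac by this rule in the knockdown and 80.1% in the control. In such bulk material, fewer cells carrying a mark and less mark per cell cannot be told apart. With 1 library a group there is no replicate check, so values are set side by side and no test across genotypes was made. Peak lists hold no read counts, so depth is unknown, and its part in any difference of covered length was not tested.

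H3K27me3 peaks covered more of the pericentromeric regions in the knockdown than in the control, and H3K27ac peaks covered less. H3K27me3 lay over 1319 kb (10.7% of the bases) in the knockdown and 663 kb (5.37%) in the control, a ratio of 1.99. H3K27ac lay over 876 kb (7.09%) in the knockdown and 1656 kb (13.4%) in the control, a ratio of 0.529. The direction was shared by all 4 arms. The H3K27me3 ratio of knockdown over control was 2.58 on 2L, 2.46 on 3L, 1.54 on 3R and 2.28 on X, and the H3K27ac ratio was 0.388 on 2L, 0.411 on 3L, 0.590 on 3R and 0.761 on X.

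The direction for H3K27me3 depended on which peaks were compared. Among peaks with a −log10 q of at least 2 in both lists, the pericentromeric ratio was 2.94. When the knockdown list was trimmed to its peaks of highest significance until it covered as much of the 6 arms as the control list, the pericentromeric ratio was 0.735. Trimming kept 3205 of 18692 knockdown peaks, with a lowest −log10 q of 2.31, and left the control list whole. At equal total cover, that ratio compares the shares of each list's cover that lie in the regions, and not amounts. When H3K27me3 peaks that touch an H3K27ac peak of either genotype were dropped, it was 0.354. Among peaks with a fold enrichment of at least 2 over background it was 4.82. The H3K27ac ratio stayed below 1 under each alternative applied to it, between 0.424 and 0.792.

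**Figure D1:**
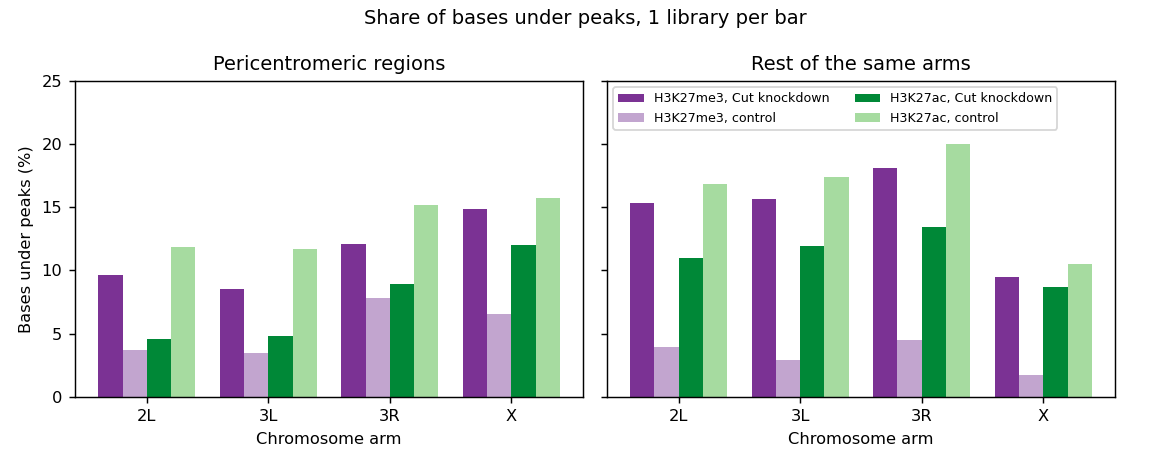
Percent of bases under H3K27me3 and H3K27ac peaks in the pericentromeric regions and in the rest of the same arms, 1 bar per library, with knockdown left of control. In the pericentromeric regions knockdown H3K27me3 bars run between 8.56% on 3L and 14.9% on X, each above its control bar, and knockdown H3K27ac bars stand below their control bars on every arm.

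The rest of the same 4 arms, 94.9 Mb, had the same directions with other sizes. There the knockdown over control ratio of covered length was 4.47 for H3K27me3, against 1.99 in the pericentromeric regions, and 0.694 for H3K27ac, against 0.529. In the knockdown, pericentromeric H3K27me3 covered 10.7% of bases and the rest of the arms 14.9%, a density ratio of 0.718. In the control, pericentromeric H3K27me3 covered 5.37% and the rest of the arms 3.33%, a density ratio of 1.62. H3K27ac was less dense in the 4 pericentromeric regions combined than in the rest of the arms, with density ratios of 0.621 in the knockdown and 0.815 in the control. The arms were not alike. On X all 4 libraries were denser near the centromere, with ratios of 1.56 for knockdown H3K27me3, 3.83 for control H3K27me3, 1.38 for knockdown H3K27ac and 1.5 for control H3K27ac. On 2L, 3L and 3R the ratios of the other 3 libraries were below 1, and that of control H3K27me3 was 0.950 on 2L, 1.2 on 3L and 1.75 on 3R. Among peaks with a fold of at least 2 that control density ratio was 0.639, and among peaks with a −log10 q of at least 2 the control H3K27ac density ratio was 1.63. With the knockdown list trimmed as above, the knockdown H3K27me3 density ratio was 1.12. Of all H3K27me3 cover on the 6 arms, 6.77% in the knockdown and 14.2% in the control lay in these regions. With 1 library a group, no difference between the pericentromeric regions and the rest of the arms was tested across samples.

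Pericentromeric peaks were weaker than the others of their list by the authors' deposited fold, while by significance the direction differed between lists. The median fold of pericentromeric H3K27me3 peaks was 1.82 in the knockdown and 1.82 in the control, against 1.90 and 1.88 for the same libraries on the rest of the arms. For H3K27ac it was 1.97 in the knockdown and 1.88 in the control, against 2.15 and 1.94 on the rest of the arms. The share of knockdown H3K27ac peaks with a fold of at least 2 was 44.3% in the pericentromeric regions (95% exact binomial interval 41.4 to 47.2%) and 83.5% in the rest. For control H3K27ac these shares were 25.2% and 33.7%, for knockdown H3K27me3 16.6% and 29.4%, and for control H3K27me3 13.5% and 21.0%. These intervals cover counting error within a library only. The share of control H3K27ac peaks with a −log10 q of at least 2 was 27.1% in the pericentromeric regions and 19.1% in the rest. For control H3K27me3 these shares were 25.05% and 22.76%, and for knockdown H3K27me3 they were 28.13% and 28.04%. For knockdown H3K27ac the share was lower in the pericentromeric regions, at 18.9% against 20.08%.

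**Figure D2:**
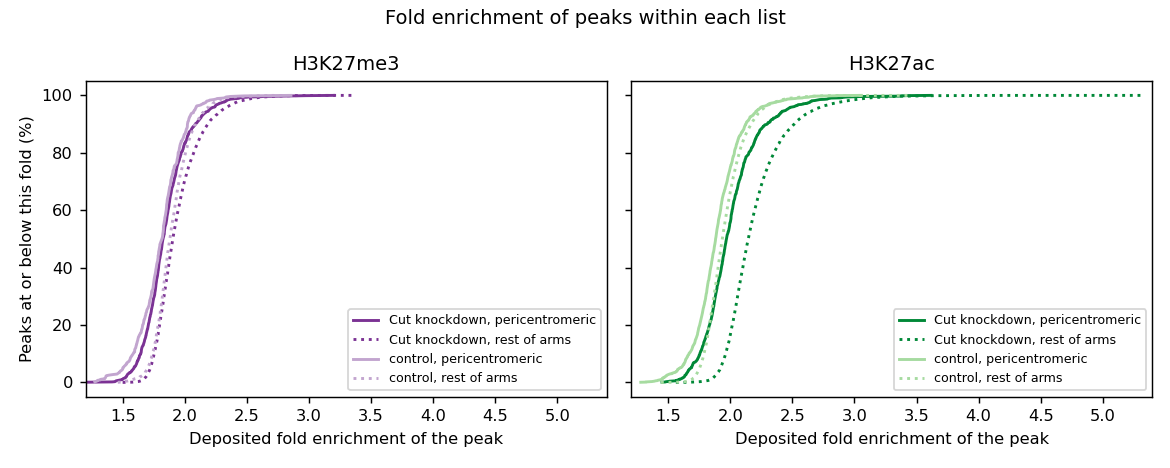
Cumulative share of peaks (%) against the deposited fold enrichment, for pericentromeric peaks (solid) and the rest of the arms (dotted), knockdown in dark and control in light colour. Each solid line lies left of its dotted line over most of the range, and the widest gap is that of knockdown H3K27ac, with medians of 1.97 and 2.15.

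Very wide peaks were also found here. The widest H3K27me3 peak of the regions was 46.3 kb in the knockdown and 19.7 kb in the control, and the widest H3K27ac peak was 18.5 kb in the knockdown and 36.4 kb in the control. All 4 lie in the innermost part of 3R. Peaks of at least 10 kb numbered 9 in knockdown H3K27me3, 3 in control H3K27me3, 4 in knockdown H3K27ac and 8 in control H3K27ac. The far longer rest of the arms had 12, 1, 0 and 0 such peaks in the same lists. At the other end, the median pericentromeric H3K27me3 peak was 715 bp in the knockdown and 823 bp in the control, and the median H3K27ac peak 419 bp in the knockdown and 633 bp in the control.

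The difference between genotypes was spread along the regions. Of 48 full bins of 250 kb, H3K27me3 covered more in the knockdown in 46 and less in 2, both on 3R. H3K27ac covered less in the knockdown in 48 of 48. The median bin had 8.15% of its bases under H3K27me3 in the knockdown and 3.26% in the control, and 4.77% under H3K27ac in the knockdown and 11.2% in the control. These are bins of the same 4 libraries and not replicates of the genotypes.

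**Figure D3:**
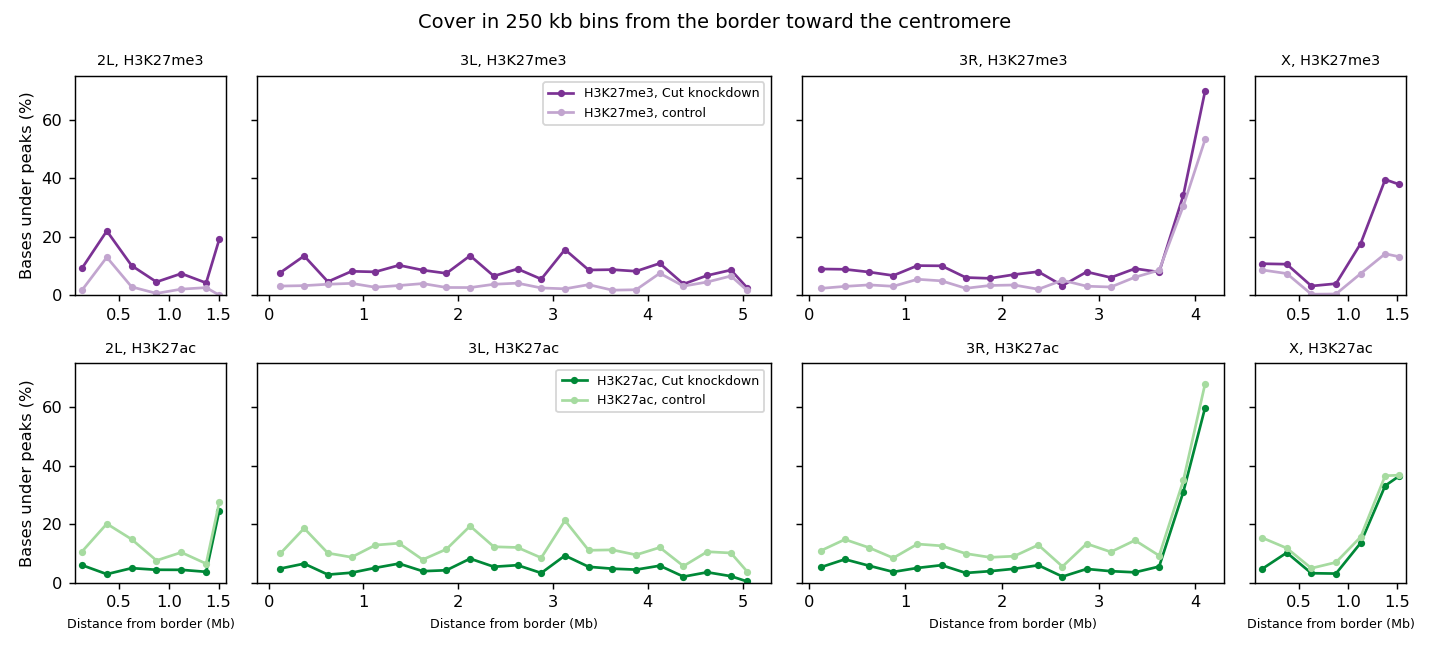
Percent of bases under peaks in 250 kb bins against distance (Mb) from the outer border toward the centromere, with the last point of each arm a shorter bin. In each of the 4 lists the innermost bins of 3R and X have the highest cover of their arm, and the last 200 kb of 3R reach 69.8% H3K27me3 in the knockdown and 53.2% in the control.

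The innermost ends of 3R and X held much of the cover. The stretch 3R:1-567075, on the centromere side of the first protein-coding gene of that arm, had 42.4% of its bases under H3K27me3 in the knockdown and 34.7% in the control. H3K27ac covered 36.7% of it in the knockdown and 42.2% in the control. The stretch X:23108332-23539736, beyond the last protein-coding gene of X, had 34.6% under H3K27me3 in the knockdown and 13.3% in the control. H3K27ac covered 28.8% of it in the knockdown and 31.4% in the control. Together these stretches are 0.998 Mb, 8.09% of the regions' length, and held 29.6% of the knockdown and 38.3% of the control H3K27me3 cover, and 37.9% of the knockdown and 22.6% of the control H3K27ac cover. Without them, in an alternative added after seeing the data, the knockdown over control ratio was 2.27 for H3K27me3 and 0.424 for H3K27ac. The control H3K27me3 density ratio to the rest of the arms was then 1.08, against 1.62 with them. How reads that match several repeat copies were placed is not given in the sources used here, and its part in these values was not tested.

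The rRNA gene copies annotated at X:23200802-23291729 lie in the inner stretch of X. This 90.9 kb span carries 16 annotations of rRNA or rRNA pseudogenes, sequences of the kind around which the nucleolus forms. H3K27me3 covered 49.5% of the span in the knockdown and 25.0% in the control, and H3K27ac 41.3% in the knockdown and 31.5% in the control. Here H3K27ac cover was higher in the knockdown, unlike over the regions as a whole. An H3K27me3 peak lay on 15 of the 16 annotations in the knockdown and 11 in the control, and an H3K27ac peak on 12 in the knockdown and 5 in the control. Nearer the end of the arm, at the annotated miRNA gene mir-10404-5, lay the control H3K27me3 peak of highest significance in its whole list, X:23538050-23538272, with a −log10 q of 11.3 and a fold of 2.47. In the knockdown the overlapping H3K27me3 peak, X:23538046-23538449, had a −log10 q of 7.91 and a fold of 2.22. Near-identical rRNA copies share reads, so values of single copies are uncertain.

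Counted by bases, the marks lay together more often near the centromeres than in the rest of the arms. Of pericentromeric H3K27me3 bases, 47.7% also lay under H3K27ac in the knockdown and 44.0% in the control, against 31.6% in the knockdown and 23% in the control on the rest of the arms. Of pericentromeric H3K27ac bases, 71.8% lay under H3K27me3 in the knockdown and 17.6% in the control, against 41.2% and 4.65% on the rest of the arms in the same genotypes. Counted by peaks, H3K27me3 peaks that touch H3K27ac were not more frequent there. They were 58.0% in the knockdown, against 61.9% on the rest, and 48.6% in the control, against 49.0%. H3K27ac peaks that touch H3K27me3 were 65.2% in the knockdown, against 51.5%, and 16.7% in the control, against 8.12%. Among peaks with a fold of at least 2, the share of H3K27me3 bases under H3K27ac was 12.1% in the knockdown and 2.08% in the control, and with lists of equal cover it was 69.9% in the knockdown and 41.2% in the control. Both settings were computed for the pericentromeric regions only. In kilobases, both marks were called over 629 kb in the knockdown and 292 kb in the control. The labels give 1 catalogue number for both antibodies, and whether the lists then measure different marks was not tested.

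Merging the 4 lists gave 2085 pericentromeric sites. The largest class, 463 sites (22.2%), had a control H3K27ac peak and no other, against 16.0% of the 25982 sites on the rest of the arms. The next, 429 sites (20.6%), had H3K27ac in both genotypes and H3K27me3 in the knockdown, against 23.8% on the rest of the arms. Sites with control H3K27me3 alone numbered 210 (10.1%, interval 8.81 to 11.4%), against 2.19% on the rest of the arms. Sites with knockdown H3K27ac alone numbered 172 (8.25%), against 16.6% on the rest, and sites with knockdown H3K27me3 alone 105 (5.04%), against 7.10%. A further 204 sites (9.78%) paired knockdown H3K27me3 with control H3K27ac, against 7.82% on the rest.

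**Figure D4:**
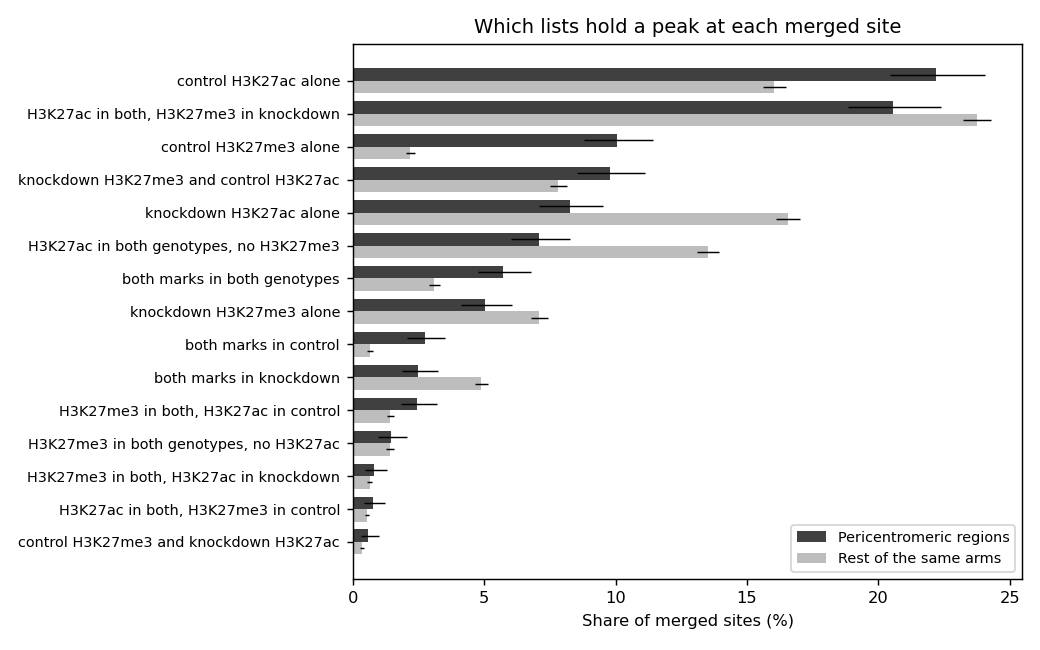
Share of merged sites (%) by which of the 4 lists hold a peak there, in the pericentromeric regions (dark) and the rest of the same arms (grey), with 95% exact binomial intervals that cover counting error only. Sites with control H3K27me3 alone make up 10.1% of the pericentromeric sites and 2.19% of the others.

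All 4 lists met at 119 sites (5.71%, against 3.09% on the rest of the arms), which spanned 533 kb with a median width of 2465 bp. Of these, 58 lay on 3R and 32 on X. The widest was 3R:122662-168994, a 46.3 kb block 398 kb from Myo81F, the nearest protein-coding gene. The widest on X was X:23410534-23434029, 23.5 kb long and past the last protein-coding gene of that arm. A peak in every list defines these sites, so its presence there says nothing about genotype or mark.

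Control H3K27me3 peaks were found again in the knockdown less often here than elsewhere on the arms. An overlap of at least 1 bp with a knockdown H3K27me3 peak was seen for 43.7% of the 547 pericentromeric control peaks (interval 39.5 to 48.0%), against 64.9% on the rest of the arms. By arm this share was 40.4% on 2L, 30.2% on 3L, 46.6% on 3R and 70.1% on X. In the other direction, 19.8% of the 1070 knockdown H3K27me3 peaks (17.5 to 22.3%) met a control H3K27me3 peak, against 13.2% on the rest. For H3K27ac, 75.5% of knockdown peaks met a control peak and 47.5% of control peaks met a knockdown peak, against 64.5% and 58.7% on the rest of the arms for the same lists. Because the lists differ in length, each share is of its own list, and its size followed the threshold. With lists of equal cover, 49.0% of knockdown and 23.8% of control H3K27me3 peaks were shared, and among peaks with a fold of at least 2, 7.87% of knockdown and 18.9% of control peaks. For H3K27ac, 26.0% of knockdown and 32.1% of control peaks were shared at a fold of at least 2, and 47.7% of knockdown and 21.5% of control peaks at a −log10 q of at least 2.

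Most H3K27me3 peaks that only the knockdown list held lay on H3K27ac, in the pericentromeric regions and on the rest of the arms alike. Of the 858 pericentromeric ones, 753 (87.8%) touched an H3K27ac peak of either genotype, against 84.5% on the rest of the arms. Of the 308 that only the control list held, 98 (31.8%) touched one, against 43.5% on the rest. Of the 239 control peaks shared with the knockdown, 198 (82.8%) touched one, against 68.3% on the rest.

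H3K27me3 over most of a gene body was rare among the protein-coding genes of the regions. The knockdown alone had H3K27me3 over at least 50% of the span of 2 of the 145 genes (1.38%), against 13.8% of all 13911 genes. The control alone had it on 1 (0.690%), against 0.446% of all genes, and both genotypes on 0, against 1.6% of all genes. The knockdown genes were tio and Gpb5. The gene tio encodes the zinc finger transcription factor tiptop, at 2L:22019208-22025734 just inside the border. H3K27me3 covered 73.0% of it in the knockdown and 6.66% in the control, and H3K27ac 21.0% in the knockdown and 53.2% in the control. Gpb5 encodes a glycoprotein hormone subunit and had 51.8% under H3K27me3 in the knockdown, just over the 50% limit, and 0 in the control. This was 0.396 kb of a 0.765 kb gene, under a peak with a fold of 1.74 and a −log10 q of 1.36. H3K27ac covered 30.1% of Gpb5 in the knockdown and 34.9% in the control. The control gene was CG46506, 1 of a row of like-sized genes on X, with 79.2% under H3K27me3 in the control and 0 in the knockdown.

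Smaller patches of H3K27me3 were found on more of the genes. An H3K27me3 peak of any size lay on 66 of the 145 genes in the knockdown, a smaller share than the 61.6% of all genes. In the control it lay on 29 of the 145, a larger share than the 11% of all genes. Any H3K27me3 peak on the gene was found in the knockdown alone for 47 genes (32.4%), against 51.8% of all genes, in the control alone for 10 (6.90%), against 1.29%, and in both for 19 (13.1%), against 9.74%. Covered length was higher in the knockdown for 59 genes (40.7%), against 59.6% of all genes, and lower for 17 (11.7%), against 2.69%. H3K27ac on the gene or within 500 bp was found in the knockdown alone for 10 (6.90%), against 7.17% of all genes, in the control alone for 27 (18.6%), against 10.4%, and in both for 69 (47.6%), against 69.7%. H3K27ac length was higher in the knockdown for 29 of the 145 genes, against 27.1% of all genes, and lower for 70 (48.3%), against 54.1%. No peak of either mark was called on 39 genes (26.9%, interval 19.9 to 34.9%), against 14.9% of all genes.

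Very long genes make up most of the genic bases: the 14 genes of at least 50 kb were 83.7% of the bases of the 145 genes, and held 88.1% of their H3K27me3 cover in the knockdown and 92.7% in the control, and 82.0% of their H3K27ac cover in the knockdown and 87.2% in the control. They had 6.87% of their bases under H3K27me3 in the knockdown and 3.65% in the control, and 4.13% under H3K27ac in the knockdown and 10.6% in the control. H3K27me3 length was higher in the knockdown in 12 of the 14, and lower in AGO3 and Dbp80. H3K27ac length was lower in the knockdown in 14 of 14. Of all 307 genes of at least 50 kb on the 6 arms, H3K27me3 length was higher in the knockdown in 96.1% and lower in 2.93%, and H3K27ac length was lower in 84.4%. In the 76 genes under 5 kb, H3K27me3 covered 9.07% in the knockdown and 2.13% in the control, and H3K27ac 12.1% in the knockdown and 18.5% in the control. These shares were higher than in the long genes in 3 lists and lower in control H3K27me3. Bases outside protein-coding genes had 14.0% under H3K27me3 in the knockdown and 7.02% in the control, and 9.37% under H3K27ac in the knockdown and 16.0% in the control.

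**Figure D5:**
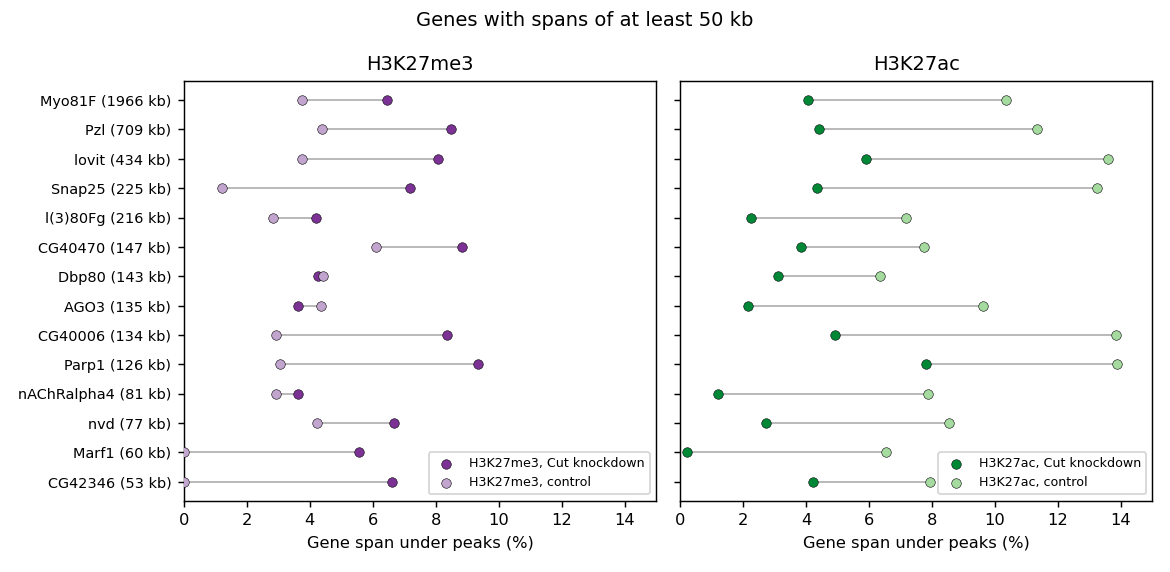
Percent of the gene span under H3K27me3 (left) and H3K27ac (right) peaks for the 14 genes of at least 50 kb, knockdown in dark and control in light points joined by a line. H3K27ac is lower in the knockdown in all 14, and H3K27me3 is higher in the knockdown in 12, with AGO3 and Dbp80 the exceptions.

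Myo81F, which encodes a myosin heavy chain, spans 3R:567076-2532932 and had the largest differences of covered length for both marks. H3K27me3 covered 127 kb of it in the knockdown and 73.5 kb in the control, and H3K27ac 79.5 kb in the knockdown and 203 kb in the control. As shares of its 1966 kb span these were 6.46% and 3.74% for H3K27me3, and 4.05% and 10.3% for H3K27ac. Lengths are not scaled to span, which is 709 kb for Pzl, 434 kb for lovit, 225 kb for Snap25 and 126 kb for Parp1. Pzl, which encodes a Piezo-like mechanosensitive channel, came next, with 60.2 kb of H3K27me3 in the knockdown and 31.2 kb in the control, and 31.4 kb of H3K27ac in the knockdown and 80.4 kb in the control. Within Pzl lay the control H3K27ac peak of highest fold in the regions, 3R:3076851-3077052, with a fold of 3.06, an H3K27me3 peak of each genotype over it and no knockdown H3K27ac peak. On 3L, lovit, which encodes a synaptic vesicle transporter, had 35.1 kb of H3K27me3 in the knockdown and 16.3 kb in the control, and 25.6 kb of H3K27ac in the knockdown and 58.9 kb in the control.

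Among neuronal genes, Snap25, a SNARE protein of synaptic vesicle fusion, had 16.1 kb of H3K27me3 in the knockdown and 2.70 kb in the control, and 9.79 kb of H3K27ac in the knockdown and 29.8 kb in the control. nAChRalpha4, a subunit of the nicotinic acetylcholine receptor, had 2.92 kb of H3K27me3 in the knockdown and 2.37 kb in the control, and 0.976 kb of H3K27ac in the knockdown and 6.35 kb in the control. One of its knockdown H3K27ac peaks, 3L:23207800-23207980, had a fold of 3.42 and met no peak of the other lists. stnA and stnB, both needed for synaptic vesicle recycling and annotated on 1 shared span, had 1.92 kb of H3K27me3 in the knockdown and 0 in the control, and 1.51 kb of H3K27ac in the knockdown and 3.03 kb in the control.

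Genes that act on chromatin or RNA varied. Parp1, the poly(ADP-ribose) polymerase, had 11.7 kb of H3K27me3 in the knockdown and 3.84 kb in the control, and 9.83 kb of H3K27ac in the knockdown and 17.4 kb in the control. AGO3, an Argonaute protein of the piRNA pathway, had 4.91 kb of H3K27me3 in the knockdown and 5.89 kb in the control, and 2.92 kb of H3K27ac in the knockdown and 13.0 kb in the control. Dbp80, a DEAD-box RNA helicase, had 6.10 kb of H3K27me3 in the knockdown and 6.32 kb in the control, and 4.43 kb of H3K27ac in the knockdown and 9.06 kb in the control. su(f), a subunit of the mRNA 3′ end cleavage machinery, had 1.33 kb of H3K27me3 in the knockdown and 0 in the control, and 1.16 kb of H3K27ac in the knockdown and 1.82 kb in the control. Spf45, a splicing factor, had 0.458 kb of H3K27ac in the knockdown and none in the control. Set1, a histone H3 lysine 4 methyltransferase, had no peak in any list.

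vtd encodes Rad21, the kleisin subunit of cohesin, the complex the study sets beside Cut. It lies at 3L:27136525-27157999 and had small peaks in 3 of the lists. In the knockdown an H3K27me3 peak of fold 2.02 at 3L:27140922-27141343 overlapped an H3K27ac peak of fold 2.15 at 3L:27140984-27141324. The control had no H3K27me3 peak on the gene and 1 H3K27ac peak on it, 3L:27144569-27144749, which met neither of these knockdown peaks. In all, H3K27me3 covered 0.422 kb of vtd in the knockdown and 0 in the control, and H3K27ac 0.341 kb in the knockdown and 0.181 kb in the control. Beside the gene, H3K27ac peaks of both genotypes overlapped. The knockdown peak, 3L:27135448-27135614, lay 0.911 kb from vtd with a fold of 2.89. The control peak, 3L:27135477-27135855, lay 0.67 kb from vtd with a fold of 1.98.

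The steroid hormone genes nvd and spok, which encode enzymes of ecdysone synthesis, had different values. nvd had 5.13 kb of H3K27me3 in the knockdown and 3.24 kb in the control, and 2.09 kb of H3K27ac in the knockdown and 6.57 kb in the control. spok had no peak of either mark in the knockdown, and in the control 0.854 kb of H3K27me3 and 0.443 kb of H3K27ac. Nubpl, an assembly factor of mitochondrial complex I, likewise had none on the gene itself in the knockdown. In the control Nubpl had 1.14 kb of H3K27me3 and 0.945 kb of H3K27ac. Beside the gene, a knockdown H3K27ac peak, 2L:22247249-22247686, lay 0.261 kb from Nubpl with a fold of 2.79. This peak lay within the control H3K27ac peak 2L:22246044-22247701. By the rule that counts nearby peaks, Nubpl carried H3K27ac in both genotypes. Of the genes in the regions, l(3)80Fj had the largest difference of H3K27me3 covered length in favour of the control, with 0.298 kb in the knockdown and 2.57 kb in the control.

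The long-studied heterochromatic genes were listed as 24 symbols, of which all matched and 21 lie in the regions, chosen with earlier results of these data known. H3K27me3 length was higher in the knockdown for 12 of the 21 and lower for 4, and H3K27ac length was higher for 4 and lower for 14. Over all protein-coding genes, H3K27me3 length was higher in 59.6% and lower in 2.69%, and H3K27ac length higher in 27.1% and lower in 54.1%. Their median cover by H3K27me3 was 3.64% of the span in the knockdown and 0 in the control, against 10.9% and 0 over all protein-coding genes. Their median cover by H3K27ac was 4.05% in the knockdown and 9.62% in the control, against 14.2% in the knockdown and 22.3% in the control over all genes. lt, which encodes the vesicle trafficking protein Vps41 and is a classic case of a gene that needs heterochromatin, went the other way for H3K27ac, with 1.01 kb in the knockdown and 0.216 kb in the control. Of the listed ribosomal protein genes, RpL15 had 0.266 kb of H3K27ac in the knockdown and 0.247 kb in the control and no H3K27me3. RpL5 had 0.411 kb of H3K27ac in the knockdown and 0.535 kb in the control, and 1.02 kb of H3K27me3 in the knockdown and 0 in the control. cta, a G protein alpha subunit of gastrulation, had 1 H3K27ac peak at almost the same place in each genotype, 2L:22982099-22982530 in the knockdown with a fold of 3.38 and 2L:22982146-22982548 in the control with a fold of 2.16. The folds come from separately called lists, and their scales may differ. scro, a homeobox gene, had 0.501 kb of H3K27me3 in the knockdown and 0.542 kb in the control, and 0.533 kb of H3K27ac in the control alone.

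Of the 39 genes without a peak, 18 carry official symbols. They include CkIIalpha, the catalytic subunit of casein kinase II, alpha-Cat, the cadherin-linked catenin, and the translation initiation factor gene eIF4B. These examples, Set1 and eIF4B aside, were chosen after their values were seen. Genes without a peak were shorter, with a median span of 1.67 kb, against 6.05 kb for genes with one. No peak lay within 500 bp of 34 of the 39 either. A gene without a peak is below the authors' threshold and not shown to lack the mark.

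The X region differed along its length. From the outer side, a row of 21 genes at X:22143058-22252414, 19 of them exactly 876 bp long and spaced by a median of 5.0 kb, had H3K27me3 on 0 genes in the knockdown and 4 in the control, and H3K27ac on 8 in the knockdown and 10 in the control. H3K27me3 covered 1.48% of this row in the knockdown and 4.25% in the control, a direction opposite to that of the regions as a whole. The sequences of these genes were not compared. If they are alike, reads cannot be placed among them with certainty. The next 38 genes, over X:22444227-23108331, had H3K27me3 on 29 in the knockdown and 0 in the control, and H3K27ac on 29 in the knockdown and 31 in the control. Of all protein-coding genes, 61.6% had an H3K27me3 peak in the knockdown and 11% in the control, and 70.2% an H3K27ac peak in the knockdown and 73.8% in the control. Over the 38 genes' stretch H3K27me3 covered 4.54% in the knockdown and 0.470% in the control, a ratio of 9.67. Both stretches were singled out after their values were seen.

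One intergenic H3K27me3 peak stood near the top of both H3K27me3 lists. At X:23020517-23021820 in the knockdown it had a fold of 3.20, the third highest of its whole list, and at X:23020408-23021827 in the control a fold of 2.85, the highest of its list. It lies 1.08 kb from zyd in the knockdown and 1.07 kb in the control, and zyd encodes a sodium-calcium exchanger that acts in glia. No H3K27ac peak of either genotype met it. The pericentromeric H3K27me3 peak of highest significance in the knockdown was 2L:23512880-23513730, with a −log10 q of 10.2 and a fold of 2.98. It lay at the inner end of 2L, met H3K27ac peaks of both genotypes, and had no control H3K27me3 peak. A peak between genes on X, called at X:22259378-22259620, was the most significant of the whole control H3K27ac list, with a −log10 q of 8.16. The knockdown H3K27ac list also had a peak over it, so H3K27ac was called there in both genotypes. The knockdown H3K27me3 list had a peak over it too, X:22259359-22259657, with a −log10 q of 8.37, where the control had no H3K27me3 peak.

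The borders are round positions. The peaks just inside the borders, 1 per arm and list, lay 1.35 to 125 kb from them and had folds of 1.70 to 2.20 (median 1.86). The peaks just outside had folds of 1.69 to 2.12 (median 1.81) and lay up to 44.9 kb away, and 1 of them straddled its border by 0.219 kb.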

How the data were processed

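Both marks were profiled in 4 libraries of sorted nuclei, 1 per mark and genotype. Per the labels' protocols, fragmentation used 15 U of micrococcal nuclease, which favours open chromatin, and then sonication for 3 min, 2 µg of H3K27me3 or 1 µg of H3K27ac antibody was used, and input DNA was the control. Per the submitters' processing notes, processing named FastQC, Bowtie2, SICER and MACS2, with build dm6. Not given in the sources used here are their versions and roles, the peak threshold and the treatment of duplicate and multiply mapped reads.

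The deposited files are broad peak lists, 1 per library, each with a start and an end. The deposited score is a whole number per peak and was used as a check only. The fold enrichment over background is the authors' deposited ratio. The −log10 p-value and −log10 q-value of each peak are also as deposited by the authors, and the lowest −log10 q was 1.01 in every list. These files hold no read counts, so the depth per library, and the precision it gives, are unknown.

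Starts were made 1-based. Overlapping peaks of a list were merged for covered length, and a peak was shared when at least 1 bp overlapped. A gene counted as covered by H3K27me3 at 50% or more of its span, and as carrying H3K27ac when a peak lay on it or within 500 bp. Gene spans came from a RefSeq table of release 6, with no strand. Intervals are 95% exact Clopper-Pearson intervals. The scripts were tested on simulated peaks and ran in python 3.11.15 with numpy 2.4.6, pandas 2.3.3, scipy 1.17.1 and matplotlib 3.10.9.

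With 1 library a group, no test across genotypes was made. Named genes were the listed heterochromatic genes inside the regions, the 10 protein-coding genes with the largest positive and the 10 with the largest negative difference of covered length for each mark, and the genes nearest the 5 peaks of highest −log10 q of each list. Genes known by a CG number alone took up ranks and could be left unnamed. The members, lists and rules were chosen with earlier results of these data known. Other genes or stretches named were chosen after their values were seen. No sequences are shown, since no genome was used here.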

Additional observations from a re-analysis of the deposited data

How the results depend on the processing

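Settings are given for the knockdown over control ratio of covered length (1.99 for H3K27me3, 0.529 for H3K27ac), then for the density ratio of the pericentromeric regions to the rest of the arms (knockdown H3K27me3 0.718, control H3K27me3 1.62, knockdown H3K27ac 0.621, control H3K27ac 0.815), then for genes called in the knockdown alone and the control alone (H3K27me3 over the body 2 and 1, H3K27ac 10 and 27).

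Keeping peaks with a −log10 q of at least 2 gave ratios of 2.94 and 0.488, densities of 0.942, 1.58, 0.937 and 1.63, and 1 and 0 H3K27me3 genes and 16 and 13 H3K27ac genes. The control H3K27ac density thereby passed from below to above 1. Keeping peaks with a fold of at least 2 gave ratios of 4.82 and 0.792, densities of 0.504, 0.639, 0.219 and 0.474, and 1 and 0, and 28 and 11 genes. The control H3K27me3 density there turned below 1. Borders moved 500 kb toward the centromere gave 1.96 and 0.549, densities of 0.712, 1.6, 0.645 and 0.810, and 1 and 0, and 5 and 11 genes. Trimming the longer list of each mark to the cover of the shorter gave 0.735 and 0.669, the H3K27me3 ratio turning below 1. At equal total cover, these ratios compare the shares of each list's cover that lie in the regions. Trimming gave a knockdown H3K27me3 density of 1.12, turned above 1, and a control H3K27ac density of 0.996. It left 1 H3K27me3 gene in the knockdown alone, and 21 and 17 H3K27ac genes. Dropping H3K27me3 peaks on H3K27ac turned the ratio to 0.354, with densities of 0.355 in the knockdown and 1.56 in the control and 0 genes in the knockdown alone. Calling a gene at 25% of its body gave 12 and 5. Chosen after seeing the data, any base of a peak gave 47 and 10 genes, and leaving out the gene-free inner stretches of 3R and X gave ratios of 2.27 and 0.424 and densities of 0.550, 1.08, 0.419 and 0.686. The cause of these shifts was not tested.

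The H3K27me3 direction was above 1 under 4 of the 6 alternatives applied to it. Depth is unknown and each group has 1 library, so nothing here separates genotype from library. No paired analysis was possible because each group has a single library and no comparison rests on a test.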

Other observations

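Non-coding annotations of the regions were not part of the gene counts. Of 45 long non-coding RNA genes, an H3K27me3 peak lay on 15 in the knockdown and 2 in the control, with 10.2 kb covered in the knockdown and 0.614 kb in the control, and an H3K27ac peak on 13 in the knockdown and 20 in the control. Of 22 pseudogenes, H3K27me3 lay on 4 in the knockdown and 0 in the control, and H3K27ac on 3 in the knockdown and 4 in the control. Shares over all such annotations of the arms were not computed, so these counts have no background of their own kind. An H3K27me3 peak lay on 61.6% of all protein-coding genes in the knockdown and 11% in the control. For an H3K27ac peak these shares were 70.2% and 73.8%. The longest stretch without a peak of any list was 3L:27997065-28063029, 66.0 kb, which covers 1 end of l(3)80Fj. A gap of 37.6 kb at 3L:27835894-27873501 holds the whole of eIF4B.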
